A study of Homo sapiens with 18 samples.

Results

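The 10 genes examined here had RNA in one of 2 matched ovarian carcinoma lines and were close to absent in the other, in untreated cells. TBR1, PRDM16, PDLIM1, EFCAB5, ANKH, ATP8B3 and GALNT17 were higher in the cisplatin-resistant line, and ZFHX4, FILIP1L and TNMD in the sensitive one. They are 10 of the 23622 genes of the count table, and all 10 passed the filter on low counts, which kept 15760 genes. They were picked by their values in untreated cells, so the gap between the untreated lines describes the choice and carries no test. RNA and open chromatin were measured in A2780, a cisplatin-sensitive ovarian carcinoma line, and in Acis (A2780cis in the labels), its resistant derivative, which was kept with 1 µM cisplatin every 3 passages. Each line was profiled untreated (control) or after 3 h in medium with 200 µM cisplatin, a drug that forms adducts on DNA and blocks RNA polymerases. RNA-seq had 3 libraries in each of the 4 groups, grown as triplicate wells. ATAC-seq, which maps open chromatin by transposase insertion, gave 1 peak list per group, merged from replicates before deposit. Acis is a single derivative of A2780, so a difference between the lines cannot be told apart from other changes that arose while the derivative was made and kept.

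The genes belong to different classes. Lineage transcription factors such as T-box, PRDM and zinc finger homeobox proteins bind DNA and are commonly expressed in some tissues and silent in others, with the silent state often held by closed chromatin or, at promoters rich in CpG dinucleotides, by DNA methylation. The other genes encode cytoskeletal adaptors, membrane proteins and enzymes, some of which are known mainly from tissues other than the ovary, such as tenomodulin from tendon.

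The promoter sequences of 5 of the genes are shown because they span the range of CpG content in the set, from near empty to very dense. RefSeq entries were matched for 8 of the 10 genes, all but PRDM16 and ZFHX4. Each run below is the 250 bases before the RefSeq start on the coding strand of GRCh38.p14, with every CpG in capitals. The TBR1 window is chr2:161416047-161416296 on the plus strand, the TNMD window chrX:100584686-100584935 on the plus strand, the ATP8B3 window chr19:1812277-1812526 on the minus strand, the PDLIM1 window chr10:95291004-95291253 on the minus strand, and the ANKH window chr5:14871779-14872028 on the minus strand.
TBR1: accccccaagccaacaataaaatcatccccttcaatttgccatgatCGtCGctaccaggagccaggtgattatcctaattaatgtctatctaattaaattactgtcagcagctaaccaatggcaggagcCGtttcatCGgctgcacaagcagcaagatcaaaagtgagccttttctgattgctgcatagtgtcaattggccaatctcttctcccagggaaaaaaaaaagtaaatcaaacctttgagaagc
TNMD: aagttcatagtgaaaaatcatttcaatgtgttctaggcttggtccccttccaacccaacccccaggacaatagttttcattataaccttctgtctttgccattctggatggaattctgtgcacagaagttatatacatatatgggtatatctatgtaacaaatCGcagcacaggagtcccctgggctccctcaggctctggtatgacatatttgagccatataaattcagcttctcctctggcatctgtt
ATP8B3: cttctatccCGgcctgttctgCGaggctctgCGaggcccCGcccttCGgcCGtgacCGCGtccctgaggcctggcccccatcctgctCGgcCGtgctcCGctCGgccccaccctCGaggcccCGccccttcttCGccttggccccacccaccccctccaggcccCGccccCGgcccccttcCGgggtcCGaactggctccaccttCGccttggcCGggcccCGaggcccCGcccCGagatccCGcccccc
PDLIM1: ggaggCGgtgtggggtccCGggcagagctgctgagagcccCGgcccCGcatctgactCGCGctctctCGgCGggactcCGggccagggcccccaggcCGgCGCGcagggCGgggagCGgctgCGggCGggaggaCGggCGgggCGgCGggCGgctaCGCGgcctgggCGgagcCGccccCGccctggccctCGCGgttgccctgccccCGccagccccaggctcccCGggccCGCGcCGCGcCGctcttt
ANKH: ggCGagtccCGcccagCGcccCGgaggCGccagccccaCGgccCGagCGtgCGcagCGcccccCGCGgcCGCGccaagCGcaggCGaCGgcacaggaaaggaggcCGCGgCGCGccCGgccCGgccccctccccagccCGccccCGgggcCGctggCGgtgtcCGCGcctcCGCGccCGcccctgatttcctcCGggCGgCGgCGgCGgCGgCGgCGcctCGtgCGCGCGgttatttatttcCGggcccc
Over the full window of 300 bases, which adds 50 bases after the start, TNMD held 2 CpG and TBR1 held 4, against a median of 14 over 35116 promoters. ATP8B3 held 32, PDLIM1 41 and ANKH 50, the last at the 98.7th percentile of all promoters. The near silence of a gene in one line was thus seen both with CpG-poor and with CpG-dense promoters. On either strand, the TNMD window holds the TATA box letters TATAAA, found in 11.5% of all promoters, and the TBR1 window holds the letters CCAAT, found in 34.6%. The windows of ATP8B3, PDLIM1, ANKH and GALNT17 hold the GC box letters GGGCGG, found in 45.0%. TGACTCA, the AP-1 site found in 4.95% of promoters, and CACGTG, the E-box found in 7.26%, were matched in none of these windows. Such matches describe letters and not bound sites.

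The libraries held 4130644 to 5072216 counts each. Of the 12 pairs of replicates within groups, 6 differed by less than counting noise. Nothing says that the wells came from separate cultures, so p-values measure only the spread between these samples, which may be technical. The label ovarian carcinoma was checked against 10 markers. EPCAM, KRT8 and KRT18 had a row in the table used here, with KRT18 at 25.5 ± 6.9 normalized counts in A2780 control and 143 ± 9.68 in Acis control (SD, n = 3) and KRT8 at 15.6 ± 4.29 and 4.05 ± 2.47, and the other 7, among them PAX8, WT1 and MUC16, had none. Of 3 tested cortical neuron markers, 1 was called higher and 1 lower in Acis. SLC17A7 had 160 ± 26.2 normalized counts in A2780 control and 127 ± 15.1 in Acis control, and MAP2 had 191 ± 1.91 and 6.15 ± 1.14. Of the tendon markers, COL1A1 had 844 ± 57.2 in A2780 control and 16.4 ± 7.12 in Acis control, and COL1A2 had 787 ± 26.8 and 0. Of 5 blood cell markers only CD14 had a row, with at most 2.87 normalized counts in a group. In bulk RNA, fewer cells with a transcript and less transcript per cell cannot be told apart.

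TBR1, a T-box transcription factor of deep-layer neurons of the cerebral cortex, was the most abundant gene of the set in Acis. It lies at chr2:161416297-161425870 on the plus strand. Its raw counts were 1079, 1065 and 1021 in Acis control, and 2, 4 and 2 in A2780 control. After cisplatin they were 1103, 1048 and 1052 in Acis, and 6, 8 and 10 in A2780. Every Acis library thus held at least 1021 counts and no A2780 library more than 10. In normalized counts, which scale each library to the same effective depth, the untreated means were 1148 ± 14.9 in Acis and 2.62 ± 1.07 in A2780 (SD, n = 3), a level of 0.228% in A2780.

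PRDM16, a zinc finger regulator known for setting brown fat identity, lies at chr1:3069168-3438621 on the plus strand and was at 0 in all 3 A2780 control libraries. Acis control held 186, 149 and 161 counts. After cisplatin, Acis held 136, 114 and 133 counts, and A2780 held 0, 0 and 2. Only 1 of the 6 A2780 libraries, a treated one, therefore had any count. The untreated level was at least 183-fold higher in Acis, where the bound takes 3 counts over the 3 A2780 libraries as the floor that a count of 0 allows.

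PDLIM1, an adaptor with a PDZ and a LIM domain that binds alpha-actinin on actin fibers, lies at chr10:95237572-95291012 on the minus strand. It had 241, 222 and 212 counts in Acis control and 258, 243 and 261 after cisplatin. In A2780 it had 0 in every control library and 1, 1 and 0 after cisplatin. It was present at an even level in all 6 Acis libraries, and the untreated level there was at least 249-fold higher against the same floor.

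ANKH, a membrane protein that supports the release of pyrophosphate from cells, lies at chr5:14704800-14871778 on the minus strand. Acis control held 170, 152 and 154 counts and Acis cisplatin 168, 154 and 152. A2780 held 0 in the 3 control libraries and 7, 4 and 2 after cisplatin. Every treated A2780 library had counts and no control library had one, while the treated values still stayed far below those of Acis. The untreated level was at least 175-fold higher in Acis.

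GALNT17 belongs to the family of enzymes that start mucin-type O-glycosylation, and it lies at chr7:71132144-71713600 on the plus strand. Counts were 93, 94 and 73 in Acis control and 87, 96 and 87 in Acis cisplatin. In A2780 they were 0 in each control library and 1, 2 and 1 after cisplatin. The untreated level was thus at least 95.8-fold higher in Acis.

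EFCAB5, a gene for a protein with an EF-hand calcium-binding domain, and ATP8B3, a P4-type ATPase of the family that moves phospholipids between membrane leaflets, kept a few counts in A2780. EFCAB5, at chr17:29929200-30108452 on the plus strand, had 143, 153 and 148 counts in untreated Acis, 158, 156 and 155 in treated Acis, 1, 3 and 3 in untreated A2780 and 6, 7 and 7 in treated A2780. ATP8B3, at chr19:1782075-1812276 on the minus strand, had 86, 103 and 90 counts in untreated Acis, 88, 85 and 106 in treated Acis, 3, 2 and 7 in untreated A2780 and 10, 13 and 7 in treated A2780. ATP8B3 was the gene higher in Acis with the smallest gap, with an untreated A2780 level of 4.02% of that in Acis, against 1.45% for EFCAB5.

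**Figure D1:**
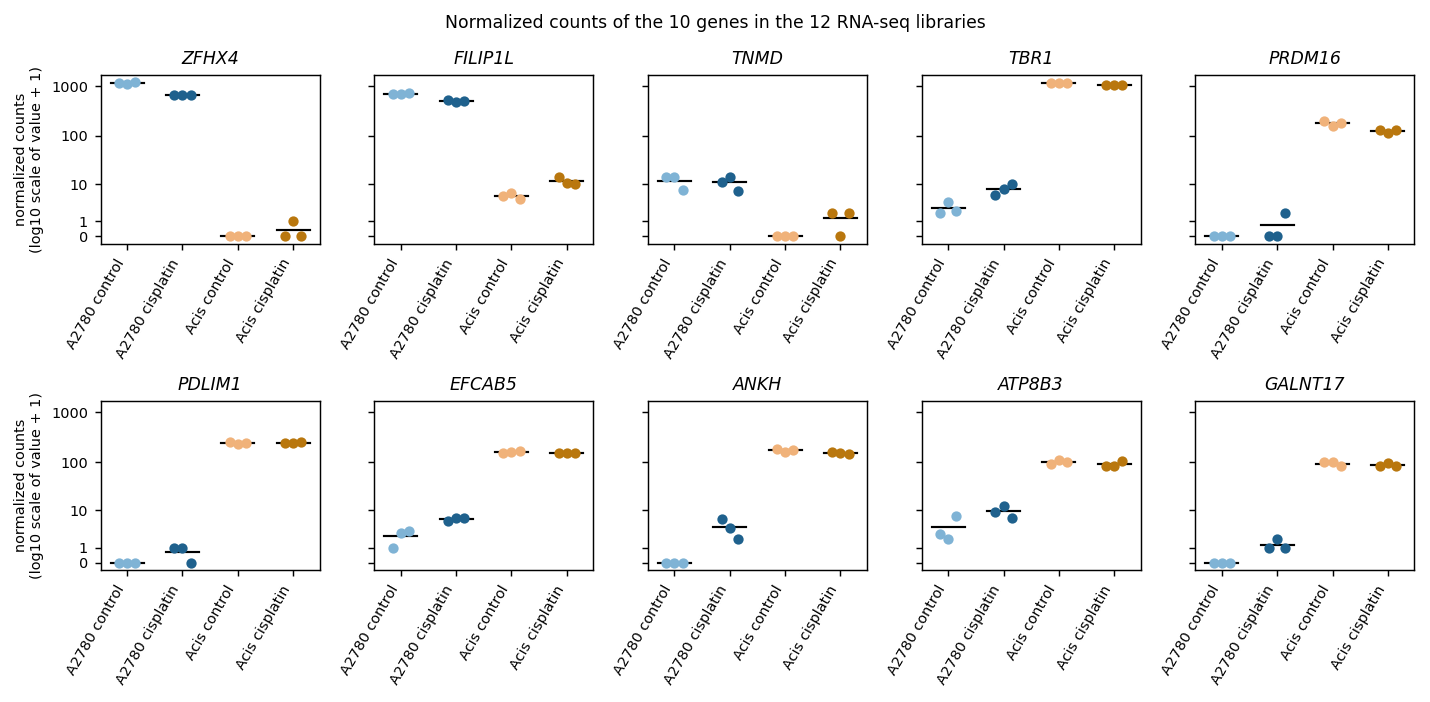
Normalized counts (vertical axis, log10 scale of the value plus 1) of each gene in the 3 libraries of each line and treatment, with a bar at the group mean. ZFHX4, FILIP1L and TNMD are higher in both A2780 groups, and the other 7 genes in both Acis groups, as the choice set for untreated cells.

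Among the genes higher in A2780, ZFHX4, a transcription factor with zinc fingers and homeodomains, was the most abundant in raw counts. It lies at chr8:76681239-76867281 on the plus strand. A2780 control held 1240, 1120 and 1115 counts and A2780 cisplatin 697, 692 and 667. Acis held 0 in the 3 control libraries and 0, 1 and 0 after cisplatin. A single read in 6 Acis libraries was thus all that was counted, and the untreated level was at least 1048-fold higher in A2780.

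FILIP1L, a relative of filamin A interacting protein, lies at chr3:99828811-100114513 on the minus strand. It had 737, 723 and 688 counts in untreated A2780 and 549, 505 and 519 after cisplatin, against 5, 6 and 4 in untreated Acis and 15, 11 and 10 after cisplatin. Its untreated level in Acis was 0.768% of that in A2780, and every Acis library had some counts. TNMD, tenomodulin, a membrane glycoprotein of tendon cells, lies at chrX:100584936-100599885 on the plus strand and was the least abundant of the 10. It had 15, 15 and 7 counts in untreated A2780 and 12, 15 and 7 after cisplatin, against 0 in each untreated Acis library and 2, 0 and 2 after cisplatin. With so few counts the untreated gap of TNMD was bounded only at 11.2-fold or more.

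Levels between genes were compared as CPM per kilobase of annotated exon, in the untreated line where each gene was present. The exon length joins the exons of all annotated transcripts, 9397 bp for TBR1 in a gene of 9574 bp. TBR1 had the highest level, at 26.0 ± 0.337 (SD, n = 3), followed by PDLIM1 at 23.4 ± 0.959, FILIP1L at 20.6 ± 0.734 and ZFHX4 at 15.2 ± 0.776. These 4 were at the 85.7th, 82.9th, 80.4th and 70.9th percentile of 15708 genes in their line. EFCAB5 followed at 4.97 ± 0.265, GALNT17 at 4.09 ± 0.408, PRDM16 at 3.92 ± 0.428, ATP8B3 at 3.07 ± 0.281, ANKH at 2.89 ± 0.161 and TNMD at 1.72 ± 0.559. GALNT17 and PRDM16 differed by less than either SD, and ATP8B3 and ANKH by less than the SD of ATP8B3 but more than that of ANKH. TBR1 passed the paper's RPKM threshold for real-time PCR in Acis, which lies above the value here, so the scales differ. By the present measure, 4 of the genes were well expressed where present, and 6 were at a low level even there.

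The treated libraries were not used to pick the genes, so the gap between the lines was also compared in them. They come from the same 2 lines, 3 h into cisplatin, so the calls were largely set by the choice. They describe how the gap stood after treatment. All 10 genes differed between Acis cisplatin and A2780 cisplatin by edgeR's quasi-likelihood test, with calls made at an adjusted p under 0.05 together with a log2 fold change of 1 or more in either direction. The 7 genes higher in untreated Acis were higher, where 7.28% of all tested genes were called higher, and the 3 others lower, where 11.9% were called lower. In the contrast used to pick the genes, 6.99% were called higher in Acis and 12.2% lower. The log2 fold change was 7.06 for TBR1 (SE 0.0966, adjusted p = 1.54e-28) and -5.42 for FILIP1L (SE 0.11, adjusted p = 7.85e-25). The weakest were ATP8B3 at 3.22 (SE 0.209, adjusted p = 2.01e-13) and TNMD at -2.95 (SE 0.59, adjusted p = 1.11e-04). For the 3 genes with 1 or 2 counts in the low line, ratios of summed counts with exact 95% binomial intervals, which cover counting error only, were 386 for PDLIM1 (107 to 3194), 194 for PRDM16 (53.4 to 1608) and 2029 for ZFHX4 (364 to 80160). The call for each of the 10 held under all 18 alternative fits.

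The untreated libraries picked the genes for near absence in one line, so a wider gap before than after cisplatin is in part set by the choice, and the shares before and after are given as a description. The level in the low line, as a share of that in the high line, was 0.228% before and 0.743% after cisplatin for TBR1, 1.45% and 4.21% for EFCAB5, 4.02% and 10.6% for ATP8B3, and 0.768% and 2.32% for FILIP1L. The treated share was 2.68% for ANKH and 1.46% for GALNT17, both at 0 before. Every gene of the set therefore stayed under 12% of the level in the other line, with TNMD, at 11.9% on 4 counts, the highest.

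In the line where it was near absent, each of the 10 genes had more normalized counts after cisplatin than before, and 6 passed the test. The untreated libraries in this comparison are also those by which the genes were picked for low counts, and a gene at 0 could only rise, so these are not independent of the choice. In A2780, 5 of the 7 low genes were called higher after cisplatin by edgeR's quasi-likelihood test, where 4.14% of all genes were called higher and 1.48% lower. TBR1 rose by a log2 fold change of 1.51 (SE 0.45, adjusted p = 0.0117), EFCAB5 by 1.43 (SE 0.477, adjusted p = 0.0277) and ATP8B3 by 1.26 (SE 0.456, adjusted p = 0.0233). ANKH rose at least 4.24-fold (adjusted p = 4.11e-04) and GALNT17 at least 1.30-fold (adjusted p = 0.0406), both from 0 counts. PDLIM1 (adjusted p = 0.162) and PRDM16 (adjusted p = 0.195), with 2 counts each after cisplatin, did not pass. For ATP8B3, control and treated libraries met, with 7 counts in 1 library of each group.

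Of these 5 calls, that of ANKH held in all alternatives. The call of TBR1 was lost without A2780 control replicate 1 (adjusted p = 0.0605) or A2780 cisplatin replicate 3 (0.0657). That of EFCAB5 was lost without A2780 control replicate 1 (0.16), A2780 cisplatin replicate 2 (0.0599) or replicate 3 (0.0625), and that of ATP8B3 without A2780 control replicate 1 (0.0965) or 2 (0.122) or A2780 cisplatin replicate 2 (0.109). The GALNT17 call was lost without any 1 of the 3 A2780 control libraries (0.087 to 0.0958) and without A2780 cisplatin replicate 2 (0.109). DESeq2 called only TBR1 and ANKH. The paper, which used DESeq2, also lists TBR1 as upregulated by cisplatin in A2780. By real-time PCR it reports TBR1 as upregulated by cisplatin in additional cell lines too.

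**Figure D2:**
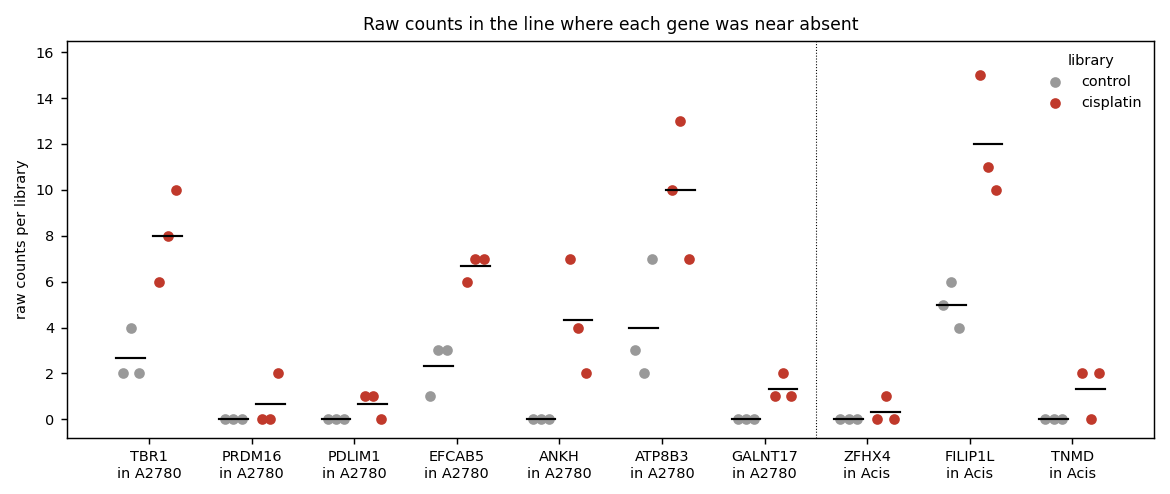
Raw counts per library (vertical axis) in the line where each gene was near absent, with grey points for control, red points for cisplatin and bars for means of 3 libraries. ANKH went from 0 in every A2780 control library to 7, 4 and 2, and FILIP1L in Acis from 5, 6 and 4 to 15, 11 and 10.

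In Acis, FILIP1L rose after cisplatin by a log2 fold change of 1.09 (SE 0.362, adjusted p = 0.0441 by edgeR's quasi-likelihood test), 1 called gene of the 3 that were low there, where 1.64% of all genes were called higher and 0.374% lower. The call was lost without any 1 of the 3 Acis control libraries (adjusted p = 0.0665 to 0.127) or without Acis cisplatin replicate 1 (0.198) or 2 (0.0651). TNMD went from 0 to 4 summed counts (adjusted p = 0.129), 1.20 times the level at the floor of 3 control counts and not a lower bound. ZFHX4 went from 0 to 1, which allows no fold.

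To set these counts beside other genes with the same kind of gap, all genes with 0 counts in the 3 control libraries of one line and 50 or more normalized counts on average in the untreated other line were listed, a rule set after the values were seen. There were 14 such genes absent from A2780, among them ANKH, GALNT17, PDLIM1 and PRDM16, and 100 absent from Acis, among them ZFHX4. After cisplatin, 5 of the 14 were still at 0 in A2780, and ANKH, with 13 summed counts, was the highest. Of the 100, 73 were still at 0 in Acis, and the highest sum was 4. Summed over each list, the treated level in the low line was 0.585% of that in the other line for the 14 genes and 0.0631% for the 100. All 12 libraries were sequenced together in 1 lane, per the methods, and whether reads of one library were counted in another was not tested.

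In the line where each gene was present, 4 of the 10 passed the test of cisplatin against control by adjusted p alone. The control libraries here are also those by which the genes were picked for presence, so these tests are not independent of the choice. ZFHX4 fell by 0.79 on the log2 scale in A2780 (SE 0.0429, adjusted p = 1.84e-13) and FILIP1L by 0.48 (SE 0.0435, adjusted p = 6.73e-10), where 28.2% of all genes were lower and 21.2% higher by edgeR's quasi-likelihood test. In Acis, PRDM16 fell by 0.53 (SE 0.102, adjusted p = 3.63e-04) and TBR1 by 0.14 (SE 0.0349, adjusted p = 0.00405), where 12.4% were lower and 9.35% higher. The fall of TBR1 was lost with total counts as library size (adjusted p = 0.0774) and with DESeq2 (0.0512), and the other 3 held in all 18 alternatives. None of the 4 reached a 2-fold change. TNMD in A2780 (log2 fold change -0.15, SE 0.35), and PDLIM1 (0.02, SE 0.0676), EFCAB5 (-0.08, SE 0.0799), ANKH (-0.16, SE 0.0853), ATP8B3 (-0.16, SE 0.122) and GALNT17 (-0.10, SE 0.11) in Acis did not pass. For ZFHX4, the lowest A2780 control library held 1115 counts and the highest treated one 697.

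**Figure D3:**
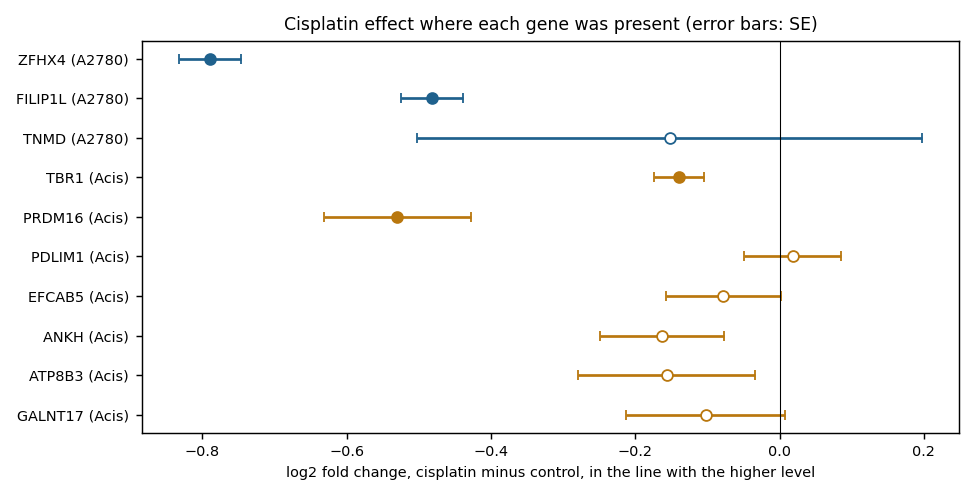
Log2 fold change of cisplatin against control (horizontal axis) with its SE for each gene in the line where it was present, blue for A2780 and orange for Acis, filled where the adjusted p was under 0.05. ZFHX4 lies at -0.79, PRDM16 at -0.53 and FILIP1L at -0.48, and the others lie within 0.2 of 0.

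The effect of cisplatin differed between the lines for 5 genes by the interaction term of the same edgeR's quasi-likelihood fit, where 18.9% of all tested genes differed by adjusted p. FILIP1L rose in Acis and fell in A2780 (difference of log2 fold changes 1.57, SE 0.362, adjusted p = 0.00289). TBR1 fell slightly in Acis and rose in A2780 (difference -1.65, SE 0.451, adjusted p = 0.016). ATP8B3 (-1.42, SE 0.472, adjusted p = 0.0352) and EFCAB5 (-1.51, SE 0.483, adjusted p = 0.0497) had the same sign of difference, as did ANKH (adjusted p = 0.00127), whose fitted size depends on the 0 counts of A2780 control. These comparisons share the control libraries that picked the genes. The difference for EFCAB5 was lost in 15 of 18 alternatives, that for ATP8B3 in 9 and that for TBR1 in 3, with adjusted p-values up to 0.223, 0.148 and 0.0827.

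Open chromatin at the gene starts, which the choice of genes did not use, followed the RNA at some of the genes only. A promoter peak here is a listed peak within 1 kb of the annotated start, and its fold is the enrichment over local background that the authors' peak caller gave. In the control lists, 2 of the 10 genes, GALNT17 and ZFHX4, had a promoter peak only in the line with the higher RNA. Over 15685 tested genes, 7.8% had one only in A2780 control and 1.52% only in Acis control. TBR1, EFCAB5 and ATP8B3 had one in both lists, as did 61.6% of all genes, and the other 5 had one in neither, as did 29.1%. The lists held 34979 peaks in untreated and 32159 in treated A2780, and 24485 in untreated and 27321 in treated Acis, with no replicates, so no test was made.

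At ZFHX4, both A2780 lists held a peak with its summit 124 bp before the start, at 8.02-fold in control and 8.01-fold after cisplatin. Neither Acis list had a peak in the gene, while A2780 control had 9 in the gene body, covering 5802 bp, and A2780 cisplatin had 1. At GALNT17, both Acis lists held a peak before the start, with the summit at -795 bp (negative positions lie before the start) and 8.59-fold in control and at -691 bp and 9.47-fold after cisplatin. The nearest A2780 summit in both lists was at -302774 bp. These 2 genes showed the same direction in RNA and in listed open chromatin at the start.

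At TBR1, the peak just after the start was 11.6-fold in Acis control and 9.78-fold in Acis cisplatin. A2780 control had a peak of 3.90-fold there and A2780 cisplatin had none. Both A2780 lists held another peak farther before the start, at -1667 bp and 8.85-fold in control and at -1727 bp and 7.57-fold after cisplatin, where neither Acis list had one. The TBR1 promoter was thus listed as open in untreated A2780, where the gene had 2 to 4 counts, at a lower enrichment than in Acis. Counting only peaks with a -log10 q of at least 10 leaves the TBR1 peak in Acis alone.

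ATP8B3 had a strong peak close to its start in all 4 lists, at 16.1-fold in untreated and 14.3-fold in treated A2780 and at 17.98-fold in untreated and 21.5-fold in treated Acis. The CpG-rich stretch printed for ATP8B3 partly overlaps that peak in each list. EFCAB5 had a promoter peak of 6.34-fold in untreated and 5.80-fold in treated A2780 and of 5.89-fold in untreated and 10.0-fold in treated Acis, and the start of SSH2, a gene on the opposite strand that was expressed in both lines, lies under or next to that peak. A listed promoter peak did not separate the lines at these 2 genes. PDLIM1 had no promoter peak in either control list and one of 5.30-fold, with its summit 17 bp before the start, in Acis cisplatin. Counted at any annotated transcript start, PDLIM1 had one in both control lists. ANKH had none in any list, in the gene body either, and the nearest summits were at -142326 bp in A2780 control and Acis cisplatin, at -142315 bp in A2780 cisplatin and at 207299 bp, beyond the other end of the gene, in Acis control, although Acis held 152 to 170 ANKH counts per library and the printed ANKH promoter has 45 CpG.

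PRDM16 had no peak within 1 kb of its start in any list. All 4 lists held one before it, at -2772 to -2861 bp. Counted at any annotated transcript start, PRDM16 had a promoter peak in A2780 control and none in Acis control. Within the PRDM16 body, A2780 control listed 5 peaks and Acis control 1, against the direction of its RNA. TNMD had no peak in its body or promoter in any list, and its nearest listed summit was over 51 kb away.

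FILIP1L and EFCAB5 differed in peaks along the gene body. FILIP1L had 13 body peaks in A2780 control, covering 11243 bp, and 2 in Acis control, covering 869 bp, with 5 and 3 after cisplatin. No list had a peak within 1 kb of the annotated 5′ end. A second RefSeq start, with its 250 upstream bases at chr3:99876174-99876423, lies close to a summit 238312 bp into the gene in Acis cisplatin, at 15.3-fold, and to one at 238525 bp in A2780 cisplatin, at 7.98-fold. EFCAB5 had 6 body peaks in A2780 control, covering 4001 bp, and 26 in Acis control, covering 23885 bp or 13.3% of the gene, with 5 and 22 after cisplatin. The median fold of these peaks was 10.9 in A2780 control and 4.53 in Acis control, so most of the Acis peaks were low in fold over local background. They were not low in -log10 q, which ran from 25.7 to 372 in Acis control and from 25.2 to 234 in A2780 control. Among 15685 genes, 8, EFCAB5 included, had at least 20 more body peaks in Acis control than in A2780 control, although the Acis control list is the smaller one. An excess in A2780 control, the larger list, at least as large as that of FILIP1L was held by 53 genes, FILIP1L included. The same number was 67 for ZFHX4 and 206 for PRDM16.

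**Figure D4:**
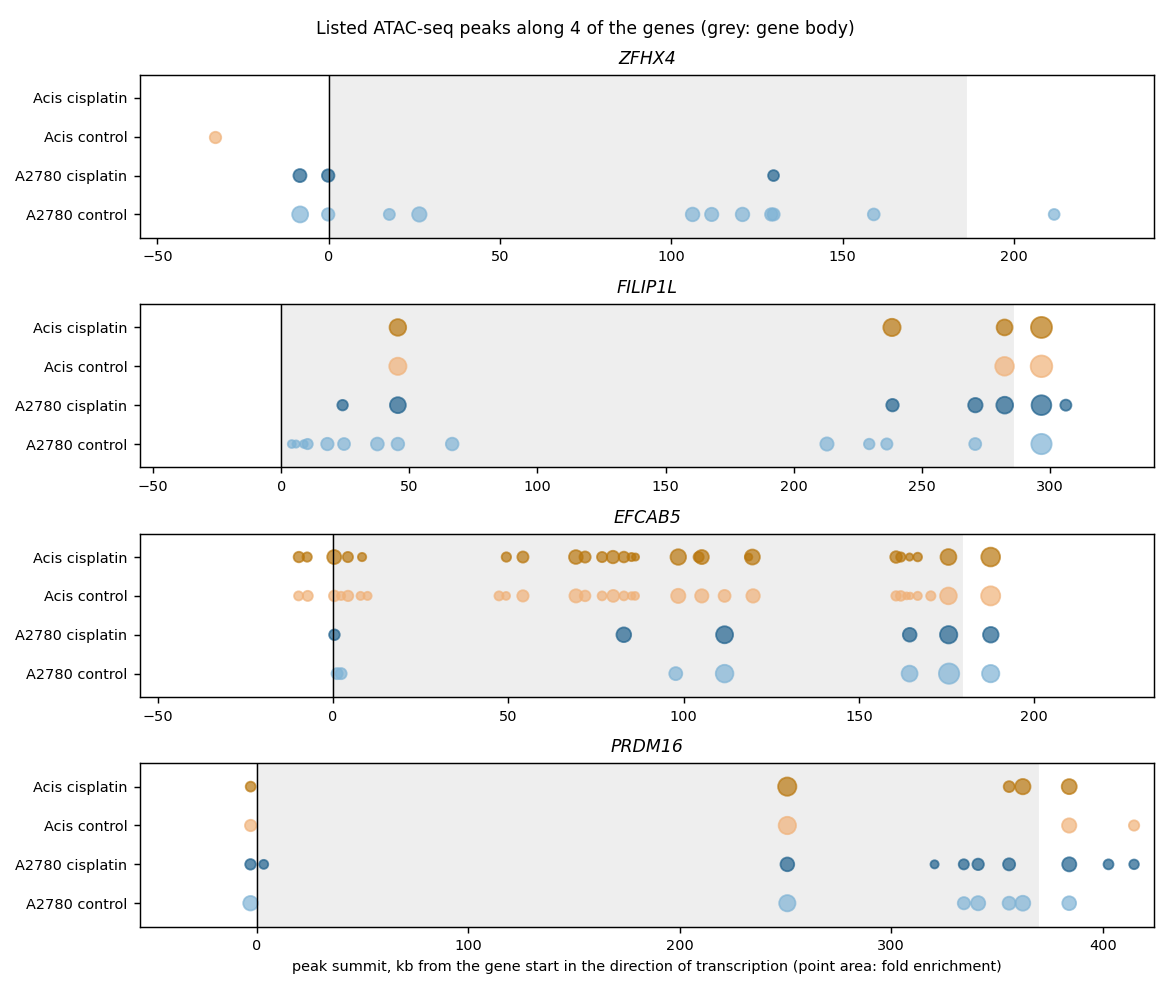
Summits of listed ATAC-seq peaks (horizontal axis, kb from the gene start in the direction of transcription, from 50 kb before to 50 kb after the gene) in the 4 lists for ZFHX4, FILIP1L, EFCAB5 and PRDM16, with point area in proportion to fold enrichment and the gene body in grey. ZFHX4 has 9 body peaks in A2780 control and 0 in Acis, and EFCAB5 has 6 in A2780 control and 26 in Acis control.

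The genes around each member were compared between the untreated lines, since neighbours were not part of the choice. Within 1 Mb, 202 tested genes were counted, of which 27 were called higher and 20 lower in Acis by edgeR's quasi-likelihood test, beside 6.99% and 12.2% of all genes. The pattern differed from place to place. Around TBR1, 8 of 16 neighbours were higher and 2 lower, with a median log2 fold change of 1.16, against -0.01 over all tested genes. The 8 include 2 genes that overlap TBR1 itself, so they are not all separate places. PSMD14, a proteasome subunit gene 4580 bp before TBR1, had 606 ± 11.1 normalized counts in A2780 control and 830 ± 29.5 in Acis control (SD, n = 3), a log2 fold change of 0.45 (SE 0.0473, adjusted p = 3.26e-09), under the fold threshold. SLC4A10, a bicarbonate transporter gene that overlaps the end of TBR1 on the same strand, had 0.987 ± 0.0708 and 25.1 ± 4.21 (log2 fold change 4.50, SE 0.43, adjusted p = 1.35e-09), and it was named after its values were seen. ENSG00000280105, the nearest tested gene past the end of TBR1, lies inside SLC4A10 on the same strand. It had 0.676 ± 0.588 and 16.0 ± 4.73 (adjusted p = 5.32e-06). Reads in stretches shared on the same strand could not be assigned to a single gene by position. The counts of SLC4A10 and ENSG00000280105 are thus uncertain.

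At EFCAB5, 9 of 39 neighbours were higher in Acis and 1 lower. The 9 are not all separate places, since SSH2 and a pseudogene inside it are both among them. SSH2, a cofilin phosphatase gene on the opposite strand that starts 1.08 kb inside EFCAB5, had 583 ± 12.2 normalized counts in A2780 control and 2691 ± 60.4 in Acis control (log2 fold change 2.21, SE 0.0423, adjusted p = 1.57e-25), while NSRP1 on the other side was at 405 ± 14.2 and 512 ± 26.1 (0.34, SE 0.0544, adjusted p = 5.31e-06). CORO6, on the SSH2 side, had 44.6 ± 2.87 and 338 ± 23.8 (2.92, SE 0.096, adjusted p = 3.75e-20). SSH2 and CORO6 were named after their values were seen. The libraries were counted by strand, per the methods, so reads of SSH2 and EFCAB5 could be told apart. The nearest tested gene before EFCAB5, the pseudogene ENSG00000265713, lies inside SSH2, with 5.28 ± 1.31 and 34.4 ± 11.7.

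At PRDM16, the divergent transcript PRDM16-DT, which starts 77 bp away on the opposite strand, had 0 in A2780 control and 30.6 ± 9.9 normalized counts in Acis control, while ARHGEF16 beyond the other end did not pass (16.8 ± 1.2 and 16.3 ± 3.23, adjusted p = 0.928). ZFHX4-AS1, antisense to ZFHX4 and named after its values were seen, had 43.7 ± 6.32 normalized counts in A2780 control and 0 in Acis control. At both genes the transcript from the opposite strand was present in the same line as the gene. Around ZFHX4, HNF4G, over 1 Mb below it, had 99.1 ± 6.19 and 6.43 ± 4.17 (log2 fold change -3.90, SE 0.242, adjusted p = 7.38e-14), and PEX2 on the other side had 282 ± 14.1 and 200.0 ± 24.5 (-0.50, SE 0.0751, adjusted p = 1.95e-06).

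Around TNMD, 5 of 17 neighbours were lower in Acis and 0 were higher by edgeR's quasi-likelihood test. PCDH19, a protocadherin gene, had 208 ± 6.33 normalized counts in A2780 control and 18.7 ± 6.31 in Acis control (log2 fold change -3.46, SE 0.144, adjusted p = 8.25e-18), and the tetraspanin gene TSPAN6 had 451 ± 10.2 and 109 ± 11.9 (-2.05, SE 0.0767, adjusted p = 7.4e-19). The nearest genes on both sides of TNMD thus had the direction of TNMD. At PDLIM1, HELLS, 623667 bp away, was at 1406 ± 47.5 and 1300 ± 87 (log2 fold change -0.11, SE 0.0405, adjusted p = 0.0167), under the fold threshold.

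At ANKH, 0 of 7 neighbours were called. OTULIN, 4950 bp from its 3′ end, had 451 ± 22.2 normalized counts in A2780 control and 525 ± 20.3 in Acis control (log2 fold change 0.22, SE 0.0522, adjusted p = 5.81e-04 by edgeR's quasi-likelihood test). FBXL7, 628402 bp away on the other side, had 38.6 ± 2.09 and 20.2 ± 4.68 (-0.93, SE 0.248, adjusted p = 0.00209). Both were under the fold threshold. At GALNT17, AUTS2, 338638 bp away, was lower in Acis (22.02 ± 1.67 and 4.74 ± 1.36, log2 fold change -2.19, SE 0.331, adjusted p = 1.94e-06), against the direction of GALNT17. TYW1B, 845144 bp away on the other side, did not pass (adjusted p = 0.721). At FILIP1L, 3 of 9 neighbours were lower in Acis, among them DCBLD2, 927116 bp away (710 ± 7.96 and 211 ± 28.2, adjusted p = 2.4e-18). VTI1BP1, a pseudogene 110861 bp away on the other side, did not pass (adjusted p = 0.881). CMSS1, which overlaps FILIP1L on the opposite strand, had 237 ± 13.3 and 277 ± 15.9 (adjusted p = 0.00538). ATP8B3 had 7 of 73 neighbours higher and 4 lower, and REXO1, 2972 bp from it, had 813 ± 17.9 and 828 ± 55 (adjusted p = 0.656), and TCF3 on the other side had 1101 ± 29.4 and 1559 ± 61.1 (log2 fold change 0.50, SE 0.0386, adjusted p = 6.98e-12). The nearest genes of ANKH, GALNT17 and ATP8B3 were thus not called in the direction of these genes.

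**Figure D5:**
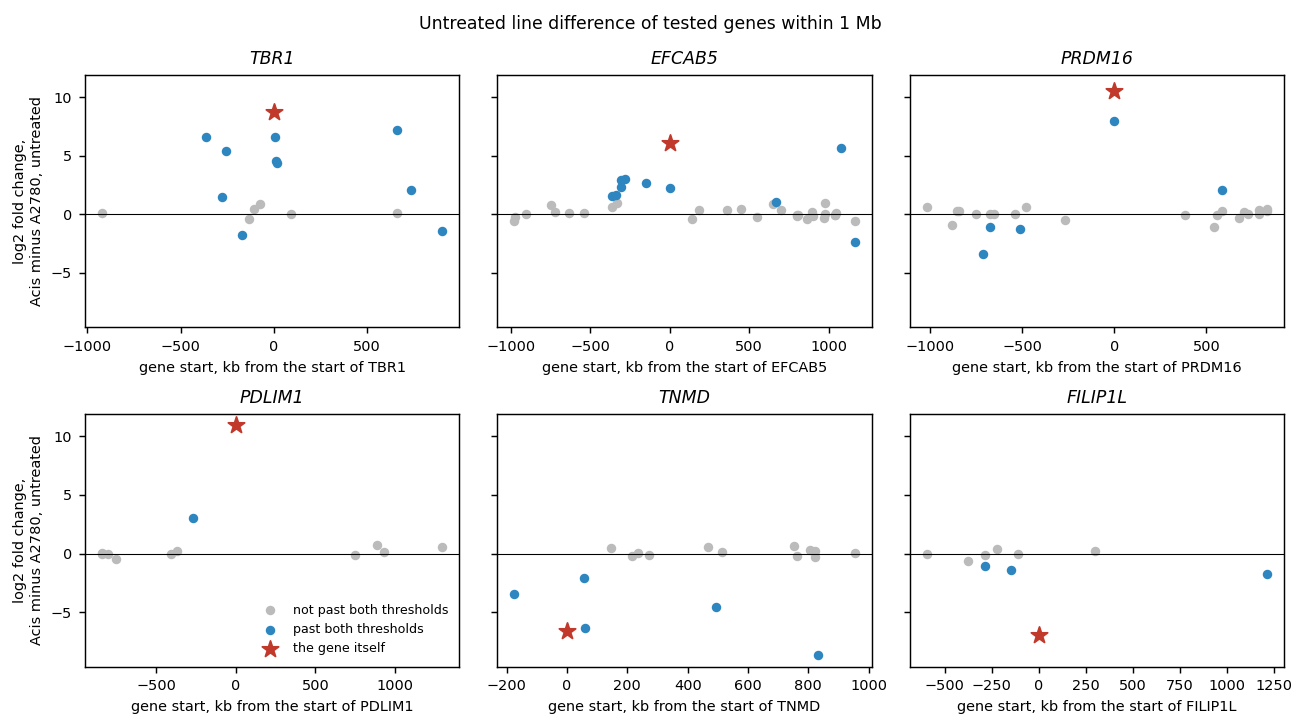
Log2 fold change between the untreated lines (vertical axis, Acis minus A2780) of tested genes within 1 Mb of 6 of the genes, by distance between gene starts (horizontal axis, kb in the direction of transcription), blue where past both thresholds and with a red star for the gene itself. Neighbours of TBR1 lie mostly above 0, with 8 of 16 called higher, and called neighbours of TNMD, 5 of 17, all lie below it.

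Relatives of the 10 genes, from lists of their families, were then compared between the untreated lines. Of 93 listed relatives, 56 were tested, of which 11 were called higher and 10 lower in Acis by edgeR's quasi-likelihood test, beside 6.99% and 12.2% of all genes. In the T-box family, EOMES, a close relative of TBR1, had 38.9 ± 6.31 normalized counts in A2780 control and 846 ± 21.8 in Acis control (SD, n = 3), a log2 fold change of 4.45 (SE 0.078, adjusted p = 2.11e-26). TBX6 was also higher (6.83 ± 1.3 and 19.6 ± 1.53, adjusted p = 8.48e-05), while TBX18 had 38.9 ± 2.42 in A2780 control and 0 in Acis control. The 6 tested members of the family had a median log2 fold change of 0.41.

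FILIP1, the closest relative of FILIP1L, had the opposite pattern. It had 6.07 ± 4.08 normalized counts in A2780 control and 1127 ± 8.96 in Acis control, a log2 fold change of 7.55 (SE 0.123, adjusted p = 4.79e-27 by edgeR's quasi-likelihood test). After cisplatin FILIP1 had 1.94 ± 1.97 in A2780 and 922 ± 25.2 in Acis. The pair was thus present one in each line, FILIP1L in A2780 and FILIP1 in Acis.

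In the GALNT family, 3 of 10 tested relatives were higher in Acis and 0 lower, with a median log2 fold change of 0.47. GALNT14 had 0.641 ± 1.11 normalized counts in A2780 control and 502 ± 16.1 in Acis control (adjusted p = 4.38e-24 by edgeR's quasi-likelihood test), GALNT18 had 0.622 ± 1.08 and 228 ± 15.1 (adjusted p = 1.06e-20), and GALNT16 had 69.4 ± 11.8 and 312 ± 25.8 (adjusted p = 1.66e-16). Like GALNT17, the first 2 of these were close to absent from A2780. In the PRDM family, by contrast, 1 of 9 was higher and 3 lower. PRDM8 had 440 ± 9.41 in A2780 control and 0.709 ± 0.614 in Acis control (adjusted p = 1.92e-23), PRDM1 had 7.58 ± 0.909 and 0 (adjusted p = 5e-05), and PRDM6 had 0.676 ± 0.588 and 13.9 ± 4.93 (adjusted p = 2.34e-06).

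Of 5 tested PDZ and LIM domain relatives of PDLIM1, 2 were lower in Acis and 1 higher. PDLIM5 fell from 452 ± 22.2 normalized counts in A2780 control to 29.4 ± 2.48 in Acis control (adjusted p = 1.32e-21 by edgeR's quasi-likelihood test), LDB3 from 25.5 ± 4.91 to 2.18 ± 1.06 (adjusted p = 7.53e-09), and PDLIM4 was at 39.8 ± 2.71 and 80.0 ± 8.22 (adjusted p = 3.42e-07). Of 12 P4-ATPase genes and their partner subunits, 2 were higher and 2 lower, among them TMEM30B, a flippase subunit, at 410 ± 14.3 and 3.97 ± 1.16 (adjusted p = 3.98e-22), ATP11B at 693 ± 31.1 and 133 ± 16.9 (adjusted p = 8.57e-21), and ATP10A at 31.9 ± 6.5 and 159 ± 30.1 (adjusted p = 3.18e-13). Relatives of the same gene thus went both ways in these families.

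For ANKH, 5 genes of phosphate and pyrophosphate handling were tested. ALPL, the alkaline phosphatase that splits pyrophosphate, had 41.0 ± 3.65 normalized counts in A2780 control and 506 ± 23.7 in Acis control (log2 fold change 3.62, SE 0.0897, adjusted p = 4.9e-23 by edgeR's quasi-likelihood test), and ABCC6, which supports pyrophosphate supply by releasing ATP, had 84.7 ± 3.51 and 13.3 ± 4.72 (-2.65, SE 0.19, adjusted p = 1.7e-12). Of 6 EFCAB genes, EFCAB6 was lower in Acis (14.9 ± 3.49 and 3.01 ± 4.33, adjusted p = 3.75e-04). Neither of the 2 relatives of ZFHX4 was called.

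The genes whose log2 levels over the 12 libraries were most like those of the 7 genes higher in Acis were CITED2 (Pearson's r = 0.999), EEF1A2 (0.998) and PTGER3 (0.997). CITED2, a transcriptional co-regulator, had means of 56.8 normalized counts in untreated and 86.6 in treated A2780, and 716 in untreated and 715 in treated Acis. PTGER3, a prostaglandin E receptor, had 3.00, 7.08, 331 and 260 in the same order. For the 3 genes higher in A2780 they were SPARC, NEK9 and RCBTB2 (r = 0.996, 0.995 and 0.995). RCBTB2 had 149 and 137 normalized counts in untreated and treated A2780 and 11.7 and 17.5 in Acis. With the libraries in 2 lines, any gene with a large line difference correlates highly, and the values describe likeness only.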

How the data were processed

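RNA-seq (12 libraries) and ATAC-seq peak lists (4) were used. Samples of excision repair sequencing were not analysed here. Per the methods, the authors aligned reads of ribosomal RNA-depleted stranded libraries with STAR 2.7.3, removed PCR duplicates with Picard and counted reads per gene with HTSeq 0.11.1 by strand, and the raw counts were deposited. The ATAC-seq reads were aligned with Bowtie2 2.4.1, and the deposited peaks, called by MACS2 and kept where replicates overlapped, carry a fold enrichment ratio and a -log10 q value as the authors gave them, on GRCh38.

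The tests on counts used edgeR 4.0.16 under R 4.3.3 (TMM normalization, default filter on low counts, 4 groups, 12 libraries, 8 residual degrees of freedom, quasi-likelihood test, Benjamini-Hochberg adjustment over 15760 genes). Calls used an adjusted p under 0.05 with a log2 fold change of 1 or more in either direction, or adjusted p alone for the interaction. The tests were checked on simulated counts, with known changes in genes of otherwise equal level in all groups. Genes near absent in a single line were not simulated, so the check does not cover them. DESeq2 1.42.0 and other settings served as alternatives. Tables, intervals and plots used Python 3.11.15 with pandas 2.3.3, scipy 1.17.1 and matplotlib 3.10.9. Positions came from GENCODE 44, which lacked 109 of the identifiers, and promoter sequences from RefSeq on GRCh38.p14. Library totals were 4130644 to 5072216 counts. Folds against 0 counts used a floor of 3 counts over that group, which covers its counting error only, and the counts of the other group were taken as exact. Of 12 replicate pairs, 6 differed by less than counting noise (ratios of observed to expected variance 0.738 to 1.54 over all pairs). All libraries were kept, and a fit with the closest 2 of each group merged was an alternative.

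The 10 genes, the lists of relatives and markers and the rules were chosen with earlier results of these data known. Besides the 10 genes, the text names the nearest tested gene on each side of each, up to 3 called relatives per list with the largest fold, markers with at least 10 normalized counts, and the 3 genes most like each set among those with a mean of at least 100 normalized counts. A marker and a neighbouring gene that these rules name are not reported here.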

Additional observations from a re-analysis of the deposited data

Results flagged for a closer look

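Of the 10 genes, 5 had a different effect of cisplatin in the 2 lines by the interaction term of edgeR's quasi-likelihood fit. Of all tested genes, 18.9% did. The differences of log2 fold changes, Acis minus A2780, were 1.57 for FILIP1L, -1.65 for TBR1, -1.42 for ATP8B3, -1.51 for EFCAB5 and -5.27 for ANKH, and the last is a fitted size that rests on 0 counts in A2780 control. In each case the gene was near absent from the line where it rose, and that line's control libraries were those used to pick it. The difference for FILIP1L and ANKH held in all 18 alternatives, and those for TBR1, ATP8B3 and EFCAB5 held in 15, 9 and 3.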

How the results depend on the processing

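The 10 of 10 calls between the treated lines, largely set by the choice of genes, held in all 18 alternatives. Other counts of called genes moved. For A2780 cisplatin against control, the 5 calls became 2 with DESeq2 and 1 to 5 when a library was left out, with 1 without A2780 control replicate 1. For Acis cisplatin against control, the 1 call became 0 with DESeq2, with no filter on low counts and with the closest 2 replicates merged, and 0 to 1 when a library was left out. For the interaction, the 5 calls became 3 with DESeq2, 3 with merged replicates and 2 to 4 when a library was left out. The cause was not tested, beyond the fewer libraries or the larger number of genes that some of these fits hold. The 2 genes with a promoter peak in the higher line alone (GALNT17 and ZFHX4) became 1 within 500 bp (ZFHX4), 1 when each list was limited to its 20000 strongest peaks by q value (TBR1, neither of the 2), 3 at a -log10 q of at least 10 (with TBR1) and 4 in the lists after cisplatin (with TBR1 and PDLIM1). With any annotated transcript start counted, the 2 stayed, PDLIM1 had a promoter peak in both control lists and PRDM16 only in A2780 control. Fitted values near 0 changed sign. PDLIM1 in Acis went from 0.02 to -0.0082 with DESeq2 and ranged from -0.014 to 0.051 when a library was left out, below 0 without Acis control replicate 2 or Acis cisplatin replicate 3. TNMD in A2780 went from -0.15 to between -0.41 and 0.081, above 0 without A2780 cisplatin replicate 3.

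With the replicate number as a block, the counts of called genes were 10, 5, 1 and 5, as without it. The numbers did not pair the samples, since the correlations of deviations between libraries of the same number were -0.205 to 0.282, with 2 of 18 over 0.1. With total counts as library size, the median log2 fold change of all genes for A2780 cisplatin against control was 0.104 in place of -0.0108. Counts of called relatives (19 to 27, 21 as reported) and neighbours (45 to 49, 47 as reported) stayed within 1.5 times, in alternatives added after seeing the data. Low counts limit TNMD and the genes at 0.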
